A study of Rosa roxburghii with 15 samples.

Results

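The comparison of mature fruit with stem in Rosa roxburghii, a wild rose grown for its fruit, covered 6 of the 15 RNA-seq libraries of the series. These were 3 libraries of mature fruit, collected 120 days after flowering, and 3 libraries of stem, which the labels describe as new shoots. The libraries were chosen by their tissue label alone. In one listing of the study the headings of young and mature fruit are exchanged for some of the MYBs, whereas its full list of MYBs has them as the deposited labels do, and the labels were followed. Every one of the 63727 unigenes (assembled transcripts grouped as putative genes) was considered, and 163 of these carry a MYB name from their best protein match. The plants of both tissues were wild and unmodified, stood in pots outdoors at one site, and no treatment is named. Stem was collected in May and mature fruit in September, so tissue and month cannot be told apart. The study's methods give 3 biological replicates per tissue, whereas the labels speak of 2 biological replicates of 3 plants each. The p-values therefore measure the spread between libraries of a tissue, which may be partly technical. For single unigenes, this spread was pooled over all 15 libraries of the series. In bulk tissue, fewer cells of a type and less RNA per cell cannot be told apart.

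MYB proteins form one of the largest families of plant transcription factors and bind DNA through MYB repeats. The R2R3 class, with a pair of repeats, includes activators of the lignified secondary wall, of flavonols and of anthocyanins, and also repressors of the phenylpropanoid pathway that feeds all of these. Stems lay down lignified xylem and fibres, and rose fruit is known for its flavonoids and vitamin C. MYB names below are those of the best match, mostly in woodland strawberry, peach, apple or other Rosaceae. The roles given are those known for proteins of the species named. The role of the Rosa roxburghii transcripts themselves was not measured.

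Primers for quantitative PCR were designed for 12 of the MYBs, and those of 6 are printed 5′ to 3′ because they identify transcripts described below. They belong to the 5 MYBs with the largest rises among the 12 and to the one of the 12 called lower in mature fruit. The MYBs with the largest falls are not among the 12.
MYB4 DN142862_c0_g1 sense: ggtgtgccagtaattcttgat
MYB4 DN142862_c0_g1 antisense: gttgtagacttcgttggatga
MYB308 DN144022_c3_g4 sense: gtgtatgaagcctgatgatgagat
MYB308 DN144022_c3_g4 antisense: tgcgtcgttgcggtaaga
MYB3 DN147128_c3_g4 sense: aatcacaaccaccaccaacac
MYB3 DN147128_c3_g4 antisense: gcttcagatagacatcacattcca
MYB6-like DN144339_c1_g4 sense: atgcctcgctgctctgaa
MYB6-like DN144339_c1_g4 antisense: tgtggtgacctgaacttgga
putative MYB DN143733_c1_g1 sense: agcaatagcaccagtctccaa
putative MYB DN143733_c1_g1 antisense: cagtagcagatgattccacaaca
MYB44-like DN143203_c0_g1 sense: accacagagccaccaatcc
MYB44-like DN143203_c0_g1 antisense: agaaccacaagaccaccaaga
The reads were assembled without a genome, so no chromosome position, exon or promoter is given, and sequence of the unigenes beyond these primers was not used here.

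Levels are FPKM, that is, sequenced fragments scaled to the length of the transcript and to the size of the library. A unigene was tested when it was above 0.1 FPKM in at least 3 of the 15 libraries. It was called when limma's adjusted p on log2(FPKM + 0.1) was at most 0.01 and the change at least 2-fold. Fold changes on this scale understate the change of low unigenes. FPKM holds no read counts, and the read totals that the study reports were not used here. From the steps of low values, depth relative to stem library 3 was 1.19, 1.05 and 1.06 in mature fruit, and 1.53 and 1.30 in the other stem libraries. On the log2 scale over tested unigenes, mature fruit library 1 correlated with libraries 2 and 3 at Pearson's r of 0.945 and 0.943, and libraries 2 and 3 with each other at 0.964. The stem pairs lay between 0.958 and 0.964, and pairs of a mature fruit with a stem library between 0.781 and 0.797. Mature fruit libraries 2 and 3 also shared 2792 unigenes that were at 0 in the other 13 libraries. These unigenes held 0.966% and 0.841% of the FPKM of those libraries, against 62 and 68 such unigenes for the other mature fruit pairs and 16 to 48 for the stem pairs. None of the 2792 could pass the filter for testing, which needs at least 3 libraries, and 2 of them had an insect MYB as best match. Only the MYBs are paired with names, so the labelled tissues could not be checked against markers of fruit or stem cells.

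Over all 51175 unigenes tested, 15037 (29.4%) were called, 6294 (12.3%) of them higher in mature fruit and 8743 (17.1%) lower. The falls were also the wider ones, with a median log2 fold change of -2.54 among unigenes called lower and 2.002 among those called higher. A log2 change of at least 5 was reached by 422 unigenes called higher and 1043 called lower. The median over all tested unigenes was 0.00. Above 0 in all 3 mature fruit libraries and at 0 in the 3 stem libraries were 2190 unigenes, 440 of which had at least 1 FPKM in each mature fruit library. The opposite pattern held for 3341 unigenes, 633 of which had at least 1 FPKM in each stem library. The number of unigenes with at least 1 FPKM was 21949, 22797 and 22076 in mature fruit and 23031, 22087 and 22871 in stem, and these ranges overlapped (two-sided exact permutation p = 0.2, n = 3 each). The 10 most abundant unigenes held between 8.86% and 10.5% of a mature fruit library's FPKM and between 5.0% and 7.88% of a stem library's. These shares did not overlap (exact permutation p = 0.1, the smallest that 3 against 3 libraries allow).

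The extremes outside the MYBs, among unigenes with a mean of at least 1 FPKM in both tissues, carry no gene name. DN127298_c0_g1 had 149, 190 and 183 FPKM in mature fruit, against 0.730, 1.56 and 0.858 FPKM in stem (log2 fold change 7.30 ± 0.27 SE, limma adjusted p = 1.21e-10). DN146642_c5_g6 had 629, 866 and 806 FPKM in mature fruit and 5.50, 4.11 and 4.87 FPKM in stem (7.28 ± 0.29, limma adjusted p = 2.11e-10). Library 1 was the lowest of the mature fruit libraries for both. In the other direction, DN130654_c0_g1 had 1.68, 0.972 and 0.575 FPKM in mature fruit, against 594, 611 and 588 FPKM in stem (log2 fold change -9.10). DN29844_c0_g1 had 0.486, 1.35 and 2.34 FPKM in mature fruit, against 708, 667 and 700 FPKM in stem (-9.08). These 4 were picked as the largest changes among called unigenes whose ranges did not overlap, so their separation follows from that choice.

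The MYB family as a whole stood lower in mature fruit. Of the 163 MYBs, 142 passed the filter, and of these 11 (7.75%) were higher and 67 (47.2%) lower in mature fruit, against 12.3% and 17.1% of all unigenes tested. The remaining 64 were not called: 50 missed the FDR, and 14 passed it with a change of less than 2-fold, 7 on each side. The median log2 fold change was -1.16 over the tested MYBs and 0.00 over all tested unigenes. Among those with a mean of at least 1 FPKM in either tissue, 10 of 103 MYBs (9.71%) were higher and 53 (51.5%) lower, beside 17.7% and 24.7% (42.4% in either direction) of the 25890 unigenes at that level. All 11 MYBs called higher and all 67 called lower had ranges that did not overlap between the tissues, as did 6280 of the 6294 unigenes called higher and 8727 of the 8743 called lower, so this goes with being called. Over all unigenes tested, called or not, the 3 mature fruit values all lay above the stem values in 23.7% and all below in 26.1%. Of the 21 MYBs not tested, 8 were above 0 in at least 1 of the 6 libraries. Counts called in the groups below are to be read beside these shares and the 29.4% of all unigenes tested called in either direction. Of the tested MYBs only 45.1% were not called, so a group share near 29.4% is below that of the MYBs as a whole.

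**Figure D1:**
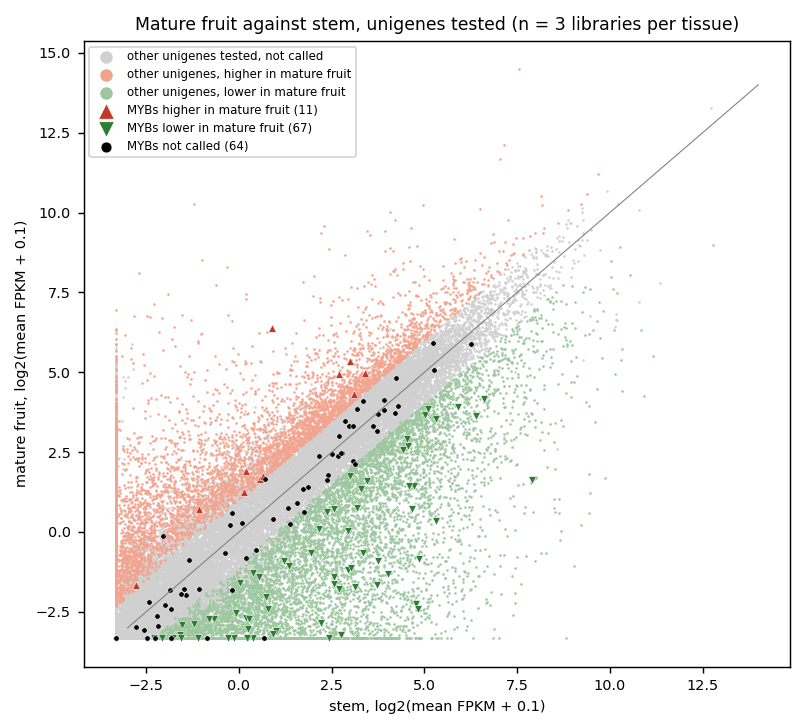
Mean level of each tested unigene in mature fruit (vertical axis) against stem (horizontal axis), both as log2(mean FPKM + 0.1) over 3 libraries, with the line of equal level. Pale points are the other unigenes by call, triangles pointing up are the 11 MYBs higher in mature fruit, triangles pointing down the 67 lower, and black points the 64 not called. Most MYBs lie under the line, and 1 MYB4 homolog lies far above it.

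Summed over all 163 MYBs, the level was 773, 767 and 753 FPKM in mature fruit, against 1509, 1507 and 1519 FPKM in stem. The mean was 765 ± 10.5 FPKM in mature fruit and 1512 ± 6.65 FPKM in stem (SD, n = 3 each), a ratio of 0.506 (exact permutation p = 0.1, the smallest possible). One MYB made up much of the stem sum. Without DN145829_c0_g2, the means were 762 ± 11.7 FPKM in mature fruit and 1271 ± 14.3 FPKM in stem. MYBs of at least 1 FPKM numbered 67, 66 and 67 in the mature fruit libraries and 94, 96 and 97 in the stem libraries. At a mean of at least 20 FPKM there were 8 MYBs in mature fruit and 20 in stem. The 5 most abundant MYBs held a like share of the summed level in each tissue, 36.3% in mature fruit and 36.9% in stem.

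Many of the falls ended near the floor. Of the 67 MYBs lower in mature fruit, 36 had less than 0.5 FPKM in each mature fruit library, and 11 were listed at 0 in all 3. The fitted fold change of those 11 depends on the pseudocount and enters the medians of the groups below. In total, 14 MYBs were above 0 in all stem libraries and at 0 in all mature fruit libraries, and 0 MYBs showed the reverse. The 14 were 8.59% of the 163 MYBs, beside 5.24% of all 63727 unigenes with this pattern and 3.44% with the reverse. Of the 14, those with at least 1 FPKM in every stem library were 3 (1.84% of the MYBs, beside 0.993% of all unigenes), named here after their values were seen. They were MYB46 DN142862_c4_g3 at 4.76, 5.36 and 5.82 FPKM in stem, the MYB4-like DN121791_c0_g1 at 1.24, 1.31 and 1.04 FPKM, and the MYB-like protein Q DN70434_c0_g1 at 1.08, 1.06 and 1.06 FPKM. A further 17 MYBs were listed at 0 in all 6 libraries.

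The largest rise was that of a MYB4 homolog. In Arabidopsis, MYB4 represses genes of the phenylpropanoid pathway. DN142862_c0_g1 had 63.96, 95.01 and 94.02 FPKM in mature fruit, against 1.52, 1.88 and 1.84 FPKM in stem. Library 1 was the lowest in mature fruit, and even there the level was far above every stem library. The mean was 48.3 times that of stem, a log2 fold change of 5.50 ± 0.20 SE with a limma adjusted p of 1.03e-10. DN142862_c0_g1 was the most abundant MYB of mature fruit. With mature fruit library 1 alone, that is without the pair that shared unigenes, the log2 fold change was 5.12. Any fit with library 1 alone takes its spread from the other tissues, so its calls hold no spread within mature fruit.

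The other MYB4 homologs did not share this rise. Of the 9, 6 were tested: 1 was higher, 4 were lower and 1 was not called, with a median log2 fold change of -1.85. DN138607_c0_g1 had 0.566, 0.395 and 0.414 FPKM in mature fruit, against 28.9, 30.1 and 27.7 FPKM in stem (log2 fold change -5.71 ± 0.16, limma adjusted p = 7.15e-12). These MYB4 homologs lay at opposite ends, DN142862_c0_g1 high in mature fruit and DN138607_c0_g1 high in stem. DN146415_c3_g1 had 4.05, 2.32 and 2.33 FPKM in mature fruit and 9.82, 11.6 and 11.1 FPKM in stem, a log2 fold change of -1.91. DN147056_c0_g1 had 7.95, 4.07 and 3.84 FPKM in mature fruit and 5.81, 5.64 and 5.48 FPKM in stem, with a log2 fold change of -0.17 (95% interval -0.62 to 0.28). Its mature fruit libraries lay on both sides of stem, library 1 above and libraries 2 and 3 below, and its sign turned to 0.49 with library 1 alone and to 0.01 without library 3. Because of DN142862_c0_g1, the summed level of the 9 was higher in mature fruit, at 78.4, 103 and 102 FPKM, against 52.7, 55.6 and 52.3 FPKM in stem.

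The snapdragon proteins MYB308 and MYB330 are known as repressors of phenolic and lignin genes. Homologs of these and of the repressor MYB6 moved in both directions. Of 10 tested, 2 were higher, 4 lower and 4 not called (median log2 fold change -0.34). The MYB308 homolog DN144022_c3_g4 had 31.5, 46.6 and 44.9 FPKM in mature fruit, against 7.48, 7.66 and 8.30 FPKM in stem (log2 fold change 2.36 ± 0.15, limma adjusted p = 2.67e-08). Again library 1 was the lowest of the mature fruit libraries, and the call held with it alone (limma adjusted p = 4.71e-06). The MYB6-like DN144339_c1_g4 had 29.7, 32.4 and 31.6 FPKM in mature fruit and 9.73, 11.9 and 9.66 FPKM in stem (1.58 ± 0.08, limma adjusted p = 3.33e-09). Of the 4 falls in the same group, 3 were larger on the log2 scale than either rise. MYB330 DN144669_c3_g3 had 0.025, 0.142 and 0.166 FPKM in mature fruit, against 25.3, 30.2 and 25.9 FPKM in stem (-7.08 ± 0.25, limma adjusted p = 8.55e-11). MYB330 DN146459_c0_g1 was listed at 0, 0 and 0.0218 FPKM in mature fruit and at 6.55, 6.41 and 6.83 FPKM in stem. MYB308-like DN142694_c0_g3 (log2 fold change -4.49) and MYB308 DN136168_c0_g1 (-1.87) were lower too, the second with 7.38, 7.13 and 4.78 FPKM in mature fruit beside 23.0, 24.7 and 22.4 FPKM in stem. The rises and falls offset each other in the sum of the 11 members, 90.1 FPKM in mature fruit and 91.1 FPKM in stem on average, with overlapping libraries.

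MYB3, an Arabidopsis repressor of phenylpropanoid genes, had 3 homologs, 1 higher and 2 lower. DN147128_c3_g4 had 28.9, 30.6 and 32.4 FPKM in mature fruit, against 6.23, 6.13 and 6.84 FPKM in stem (log2 fold change 2.24 ± 0.09, limma adjusted p = 3.49e-10). The values within each tissue were close together and those of the tissues well apart. DN138619_c0_g2 was at 0, 0 and 0.0462 FPKM in mature fruit and at 2.19, 1.60 and 1.85 FPKM in stem. DN143039_c2_g1 was at 0.115, 0.0433 and 0 FPKM in mature fruit and at 0.503, 0.552 and 0.526 FPKM in stem. The call of DN143039_c2_g1 was lost with a pseudocount of 1 (log2 fold change -0.54).

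Young fruit, collected 50 days after flowering, was set beside these risers, with the caution that both comparisons use the same stem libraries. MYB4 DN142862_c0_g1 had a mean of 26.4 ± 2.12 FPKM in young fruit (SD, n = 3), a log2 difference of 3.85 to stem, and mature fruit was above young fruit by a further 1.65 (limma adjusted p = 1.35e-05). MYB308 DN144022_c3_g4 differed from stem by 2.69 in young fruit, and its mature fruit level differed from young fruit by -0.33 (limma adjusted p = 0.0892). MYB6-like DN144339_c1_g4 differed from stem by 1.40 in young fruit, with mature fruit 0.18 above young fruit (limma adjusted p = 0.0900). MYB3 DN147128_c3_g4 had 5.40 ± 0.28 FPKM in young fruit, -0.24 from stem (limma adjusted p = 0.0536), and mature fruit was 2.48 above young fruit (limma adjusted p = 2.23e-10). The MYB4 homolog was thus above stem in young fruit already and higher still in mature fruit. The MYB3 homolog was not above stem in young fruit and stood above both in mature fruit.

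The other 7 MYBs called higher were less abundant or changed less. The putative MYB DN143733_c1_g1, best matched in Rosa rugosa, had 21.2, 20.5 and 17.6 FPKM in mature fruit and 7.97, 9.37 and 8.11 FPKM in stem (log2 fold change 1.21 ± 0.09, limma adjusted p = 8.14e-08). A MYB-related 1-like unigene, DN145863_c0_g1, had 4.12, 3.66 and 3.12 FPKM in mature fruit and 0.642, 1.15 and 1.34 FPKM in stem (1.75 ± 0.30, limma adjusted p = 0.000295). WER-like DN145308_c4_g5 had 2.02, 1.23 and 1.43 FPKM in mature fruit and 0.372, 0.398 and 0.341 FPKM in stem (1.79 ± 0.26, limma adjusted p = 6.96e-05). In Arabidopsis, WEREWOLF (WER) sets the pattern of root hair cells. The WER-like call was lost with a pseudocount of 1, where the log2 fold change was 0.89.

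The other 4 of these 7 rested on thinner ground. They were MYB7 DN148048_c1_g1 (log2 fold change 1.15, at 0.221, 0.233 and 0.195 FPKM in mature fruit and 0.0818, 0 and 0.0575 FPKM in stem), MYB12b DN145308_c4_g7 (1.13), the APL homolog DN149346_c2_g2 (1.11) and the MYB-like protein J DN128191_c0_g1 (1.10). All 4 were lost with a pseudocount of 1 and with mature fruit library 1 alone. The APL homolog was also lost without any single library, at 0.99 to 1.23 on the log2 scale and limma adjusted p values of 0.0109 to 0.0317, although it had 2.92, 3.33 and 2.98 FPKM in mature fruit and 1.63, 1.14 and 1.38 FPKM in stem. In Arabidopsis, APL specifies phloem. MYB-like protein J was lost without mature fruit library 2 or 3 or stem library 1 or 3 (0.97 to 1.09), MYB12b without mature fruit library 1 or 3 or stem library 2 (0.96 to 1.13), and MYB7 without mature fruit library 1 or 2 or stem library 2 (0.90 to 1.14). MYB7 was also lost with a pseudocount of 0.01 and in a fit of the 6 libraries alone. The calls of the 4 most abundant risers, MYB4, MYB308, MYB6-like and MYB3, and of DN143733_c1_g1 held in every one of these settings.

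**Figure D2:**
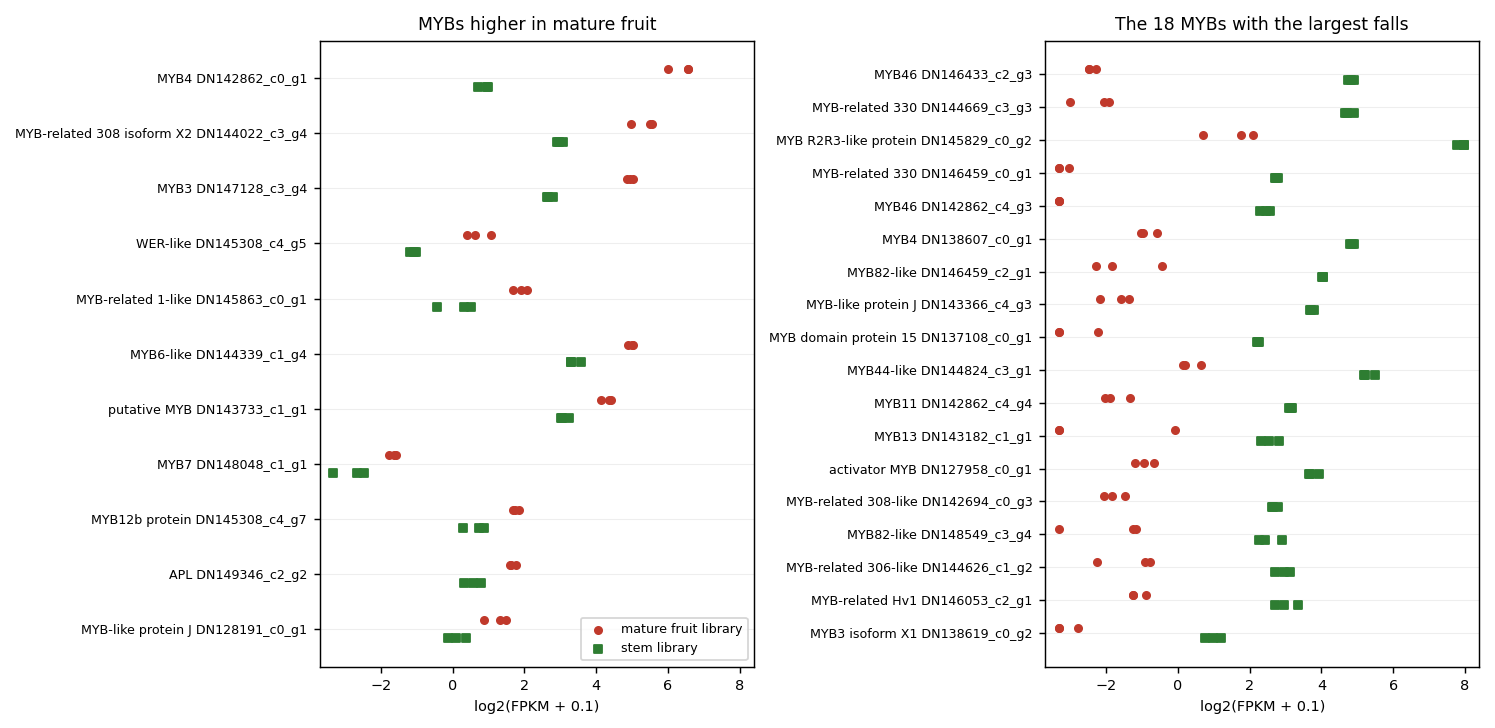
Level of the 11 MYBs higher in mature fruit (left) and of the 18 MYBs with the largest falls (right) in each library, as log2(FPKM + 0.1). Circles are the 3 mature fruit libraries and squares the 3 stem libraries, with mature fruit above stem in each row, and a value of 0 FPKM lies at the left end. Tissues that do not overlap were a condition for showing a MYB. Apart from the MYB4 homolog at the top left the rises are smaller than the falls shown. The right panel holds only the largest falls, whereas the left holds all rises, so the panels do not compare typical sizes.

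Homologs of the secondary wall regulators had the lowest median among the groups with at least 3 tested members. MYB46 is a master switch of secondary wall formation in Arabidopsis, and MYB63 activates lignin genes there. Of 5 members, 4 were lower, 1 was not called and 0 were higher (median log2 fold change -3.99). This was 80% called, beside 29.4% of all unigenes tested. MYB46 DN146433_c2_g3 had 0.105, 0.0808 and 0.0802 FPKM in mature fruit, against 28.3, 29.9 and 26.7 FPKM in stem. Its log2 fold change was -7.23 ± 0.13 (limma adjusted p = 1.62e-13), the largest fitted fall of any MYB with the pseudocount of 0.1. The order of the largest falls depends on the setting: with mature fruit library 1 alone, MYB330 DN144669_c3_g3 (-7.76) and DN145829_c0_g2 (-7.21) fell further than DN146433_c2_g3 (-7.11). The second MYB46 homolog, DN142862_c4_g3, was the one listed at 0 in mature fruit. MYB86-like DN145021_c0_g7 had 1.99, 1.01 and 1.65 FPKM in mature fruit and 25.0, 26.3 and 24.6 FPKM in stem (-3.99 ± 0.18). MYB86 DN145308_c1_g1 had 3.14, 2.17 and 2.44 FPKM in mature fruit and 23.1, 24.9 and 23.2 FPKM in stem (-3.17 ± 0.11). The MYB63 homolog was under 0.2 FPKM in every library of both tissues and was not called. Summed over the group, the level was 5.40, 3.36 and 4.26 FPKM in mature fruit, against 81.2, 86.5 and 80.4 FPKM in stem.

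The most abundant MYB of stem had no informative name. DN145829_c0_g2, matched to an R2R3-like protein of aspen, had 1.52, 3.29 and 4.18 FPKM in mature fruit, against 252, 221 and 249 FPKM in stem (log2 fold change -6.39 ± 0.25, limma adjusted p = 1.90e-10). Its stem mean was 80.2 times the mature fruit mean, and with mature fruit library 1 alone the log2 fold change was -7.21. The 39 MYBs of no set group to which it belongs included 3 higher, 11 lower, 21 not called and 4 not tested (median -0.63). Among the others, a transcriptional activator MYB, DN127958_c0_g1 (-4.69), the Hv1 homolog DN146053_c2_g1 (-4.13) and the putative MYB DN145308_c4_g3 (-3.98) fell on the log2 scale. DN144924_c2_g5 kept a higher level, with 12.8, 10.9 and 11.04 FPKM in mature fruit and 43.3, 36.2 and 40.3 FPKM in stem.

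All 3 homologs of MYB44, which acts in abscisic acid and stress responses of Arabidopsis, were lower in mature fruit (median log2 fold change -2.44). DN143203_c0_g1 had 17.6, 17.5 and 18.4 FPKM in mature fruit, against 95.3, 97.3 and 98.0 FPKM in stem (-2.44 ± 0.06, limma adjusted p = 3.03e-12). DN144824_c3_g1 had 1.47, 0.999 and 1.06 FPKM in mature fruit and 36.8, 44.9 and 36.6 FPKM in stem (-4.97 ± 0.15). DN99221_c0_g1 had 16.1, 13.7 and 12.7 FPKM in mature fruit and 33.5, 36.8 and 31.9 FPKM in stem (-1.26 ± 0.09). The libraries of each tissue were close together, and the 3 homologs summed to 33.2 FPKM in mature fruit and 170 FPKM in stem on average. The homologs of MYB13 and of MYB15, which acts in cold and defence responses of Arabidopsis, were both lower. MYB15 DN137108_c0_g1 was at 0.113, 0 and 0 FPKM in mature fruit and at 4.56, 4.48 and 4.69 FPKM in stem. MYB13 DN143182_c1_g1 was at 0, 0.840 and 0 FPKM in mature fruit and at 4.85, 6.93 and 5.70 FPKM in stem.

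Among flavonol regulators the picture was mixed. MYB11, MYB12 and MYB111 activate flavonol genes in Arabidopsis. Of the 4 homologs 1 was higher, 1 was lower and 2 were not called. The MYB12 homolog DN111034_c0_g1 was abundant in both tissues, with 61.4, 60.9 and 54.4 FPKM in mature fruit and 75.0, 73.0 and 79.8 FPKM in stem. Its ranges did not overlap, but the log2 fold change of -0.37 (95% interval -0.57 to -0.17, limma adjusted p = 0.00501) was short of 2-fold. MYB11 DN142862_c4_g4 had 0.146, 0.167 and 0.294 FPKM in mature fruit, against 8.41, 8.93 and 8.85 FPKM in stem (-4.90 ± 0.20, limma adjusted p = 2.64e-10). MYB111 DN145308_c5_g1 was listed at 0 in all mature fruit libraries and at 0.843, 0 and 3.63 FPKM in stem. With all libraries this MYB was not called (limma adjusted p = 0.0537). Without stem library 2, the one at 0, it was called lower (limma adjusted p = 0.00210). That fit drops the only stem library that overlaps mature fruit, so such a call was favoured.

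Of the 7 tested homologs of anthocyanin activators, such as MYB10 of apple and MYB90 and MYB114 of Arabidopsis, 4 were lower, 3 were not called and 0 were higher (median log2 fold change -1.85). They were scarce in both tissues, summing to 4.35, 2.66 and 2.78 FPKM in mature fruit and 14.5, 15.9 and 15.7 FPKM in stem. Their share called was 57.1%, beside 29.4% of all unigenes tested. All of these calls were falls, and 47.2% of all tested MYBs were lower, so the group was close to the family. MYB114-like DN145308_c4_g6 had 1.84, 1.45 and 1.47 FPKM in mature fruit and 8.12, 9.41 and 9.55 FPKM in stem (-2.44 ± 0.18, limma adjusted p = 9.57e-08). MYB114-like DN147278_c5_g2 fell by 2.13 on the log2 scale. MYB10 DN149070_c1_g2 was listed at 0 in mature fruit and at 0.760, 0.368 and 1.32 FPKM in stem, a call lost with a pseudocount of 1. The fall of MYB114-like DN145802_c2_g12 (-1.85, limma adjusted p = 0.00411) was lost without mature fruit library 1 (-1.58) or without stem library 1 (-1.47) or 2 (-1.92), in a fit of the 6 libraries alone and with mature fruit library 1 alone. A pseudocount of 1 also removed this call (-0.47). The pair of MYB5 homologs, named for a regulator of the seed coat and trichomes of Arabidopsis, was not called with the pseudocount of 0.1 and was called lower with 0.01. DN142862_c4_g2 was listed at 0 in mature fruit and at 0.153, 0.0545 and 0.0346 FPKM in stem (limma adjusted p = 0.0958, and 0.00719 with a pseudocount of 0.01). DN145308_c4_g1 had 5.05, 4.29 and 3.56 FPKM in mature fruit and 9.30, 7.85 and 8.56 FPKM in stem, a log2 fold change of -0.99 (95% interval -1.27 to -0.71) just short of 2-fold. It was called lower with a pseudocount of 0.01 (-1.005) and without mature fruit library 1 (-1.11) or stem library 2 (-1.05).

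Most homologs of the epidermal cell regulators MYB82, WER and GL1 were lower in mature fruit. In Arabidopsis, GL1 and MYB82 act in leaf hairs (trichomes). Of 12 tested, 8 were lower, 1 was higher (WER-like DN145308_c4_g5, above) and 3 were not called, with a median log2 fold change of -2.03. The 75% called stood beside 29.4% of all unigenes tested. Several of the 8, among them DN146459_c2_g1, were assembled from connected reads and may share reads. MYB82-like DN146459_c2_g1 had 0.182, 0.630 and 0.105 FPKM in mature fruit, against 15.997, 16.4 and 16.4 FPKM in stem (-5.55 ± 0.32, limma adjusted p = 9.69e-09). MYB82-like DN148549_c3_g4 had 0.319, 0.345 and 0 FPKM in mature fruit and 5.28, 4.69 and 7.35 FPKM in stem. A weaker call, MYB82-like DN143182_c1_g11 (-2.85), was lost without stem library 2 (limma adjusted p = 0.010013, just above the threshold), with a pseudocount of 0.01 and with mature fruit library 1 alone. The group summed to 2.66 FPKM in mature fruit, much of it from the WER-like riser, and to 28.4 FPKM in stem on average.

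ETC1 and ETC3 are small single-repeat MYBs that oppose trichome formation in Arabidopsis. Of their 5 homologs, 1 was lower and 4 were not called, so the 20% called lay under the 29.4% of all unigenes tested. ETC1 DN146126_c4_g1 had 11.9, 13.1 and 11.7 FPKM in mature fruit, against 81.6, 86.9 and 83.7 FPKM in stem (log2 fold change -2.77 ± 0.06, limma adjusted p = 1.83e-12). It was the third most abundant MYB of stem, and its mean in young fruit was 89.7 ± 4.74 FPKM. ETC1 DN149700_c2_g2 had 3.71, 2.24 and 1.36 FPKM in mature fruit and 3.52, 2.76 and 3.40 FPKM in stem, with overlapping ranges. Its log2 fold change was -0.49, and turned to 0.20 with mature fruit library 1 alone. ETC3 DN149700_c2_g3 (-1.26, limma adjusted p = 0.0143) was called lower without mature fruit library 1.

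Homologs of flower organ MYBs were low in both tissues and lower in mature fruit, with 5 of 7 tested called lower, 2 not called and a median log2 fold change of -2.71. Calls thus reached 71.4%, beside 29.4% of all unigenes tested. MYB21 and MYB24 act in stamen and petal growth of Arabidopsis, and MYB108 in anthers. MYB108 DN146459_c2_g7 had 0.899, 0.282 and 0.431 FPKM in mature fruit and 4.08, 3.59 and 3.59 FPKM in stem (-2.71 ± 0.27). MYB21 DN148254_c1_g2 was at 0.0285, 0 and 0 FPKM in mature fruit and at 2.17, 1.93 and 1.31 FPKM in stem. The MYB305-like DN138638_c0_g1 fell by 3.20 on the log2 scale and stood under 0.1 FPKM in each mature fruit library. MYB24 DN148048_c1_g5 fell by 1.70 (limma adjusted p = 0.00169), a call lost without mature fruit library 2 (-1.504, limma adjusted p = 0.0104), with mature fruit library 1 alone and with a pseudocount of 1. The group summed to 2.03 FPKM in mature fruit and 10.5 FPKM in stem on average.

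Homologs of MYBs that act at barrier layers of the plant surface and root were called about as often as unigenes in general, 33.3% of those tested beside 29.4%. This was less often than the MYBs as a whole, of which 47.2% were lower. MYB96 governs cuticular wax, MYB36 the Casparian strip and MYB92 suberin in Arabidopsis. Of 16 such homologs, 12 were tested, 4 were lower, 8 were not called and 0 were higher (median log2 fold change -0.79). MYB92 DN66535_c0_g1 had 13.5, 14.3 and 14.5 FPKM in mature fruit and 13.9, 16.1 and 14.8 FPKM in stem, and these ranges overlapped. The log2 fold change was -0.08 (95% interval -0.24 to 0.08), an interval narrower than 2-fold in either direction. MYB306-like DN144626_c1_g2 had 0.433, 0.109 and 0.481 FPKM in mature fruit and 7.67, 6.42 and 8.63 FPKM in stem (-4.25 ± 0.29, limma adjusted p = 5.59e-08). A second MYB306-like unigene, DN145149_c1_g1, had 3.23, 3.55 and 2.49 FPKM in mature fruit and 1.40, 1.66 and 1.54 FPKM in stem. Its log2 fold change of 0.95 missed 2-fold and reached it without mature fruit library 3 (1.10) or stem library 2 (1.01). MYB36-like DN149746_c2_g7 (-1.09, limma adjusted p = 0.01003) missed the FDR by little, and was called in a fit of the 6 libraries alone.

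The GARP homologs are a related class with a single MYB-like domain that includes APL, EFM and the PHL proteins. Of 13 tested, 1 was higher, 3 were lower and 9 were not called (median log2 fold change -0.29). The 30.8% called were near the 29.4% of all unigenes tested and below the share of the MYBs as a whole. EFM represses flowering in Arabidopsis, and PHL proteins act in phosphate starvation. EFM DN143137_c2_g1 had 3.13, 2.31 and 2.39 FPKM in mature fruit, against 26.9, 26.1 and 26.0 FPKM in stem (-3.30 ± 0.10, limma adjusted p = 1.45e-11). Another EFM homolog, DN146463_c1_g1, had 18.2, 17.5 and 16.4 FPKM in mature fruit and 15.03, 15.1 and 15.02 FPKM in stem, a log2 fold change of 0.21. APL DN139053_c0_g1 had 27.0, 28.8 and 29.3 FPKM in mature fruit and 18.02, 20.4 and 18.001 FPKM in stem, and its log2 fold change of 0.59 (95% interval 0.46 to 0.73) was past the FDR and under 2-fold.

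Of the MYB-like proteins known only by a letter, 8 of 10 tested were lower, 1 was higher and 1 was not called (median log2 fold change -1.97). Calls thus reached 90%, beside 29.4% of all unigenes tested. MYB-like protein X DN144656_c3_g2 had 18.1, 14.5 and 12.1 FPKM in mature fruit and 61.8, 53.7 and 64.6 FPKM in stem (-2.02 ± 0.13). MYB-like protein J DN143366_c4_g3 had 0.289, 0.122 and 0.231 FPKM in mature fruit and 12.7, 13.6 and 13.1 FPKM in stem (-5.44 ± 0.17, limma adjusted p = 1.98e-11). MYB-like protein P DN145224_c1_g2 fell by 1.60. The other MYB-like protein X, DN144159_c2_g1, had 38.8, 29.8 and 31.7 FPKM in mature fruit and 40.1, 36.6 and 37.3 FPKM in stem, overlapping through library 1 of mature fruit. Its log2 fold change was -0.19 (95% interval -0.37 to -0.01, limma adjusted p = 0.0726), and 0.03 with that library alone.

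The remaining groups were small. MYB3R proteins control genes of cell division in Arabidopsis. MYB3R-3 DN144228_c3_g1, the second most abundant MYB of mature fruit, had 71.6, 55.0 and 54.1 FPKM in mature fruit and 39.3, 34.0 and 39.7 FPKM in stem. Its tissues did not overlap, and the log2 fold change was 0.67 (95% interval 0.44 to 0.89, limma adjusted p = 0.000122), under 2-fold. MYB3R-1 DN148161_c1_g2 went the other way, with 0.558, 1.19 and 0.997 FPKM in mature fruit and 8.56, 6.63 and 7.55 FPKM in stem (-2.97 ± 0.24, limma adjusted p = 2.66e-07). MYB1R1, named in potato for a drought response, had 2 homologs lower in mature fruit, DN148732_c1_g1 (-1.86) and DN133642_c0_g1 (-1.34). The homolog of DIVARICATA, which shapes the snapdragon flower, had 16.2, 17.3 and 17.4 FPKM in mature fruit and 9.52, 10.04 and 10.9 FPKM in stem for DN146332_c2_g2, a log2 fold change of 0.74 (95% interval 0.59 to 0.89).

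**Figure D3:**
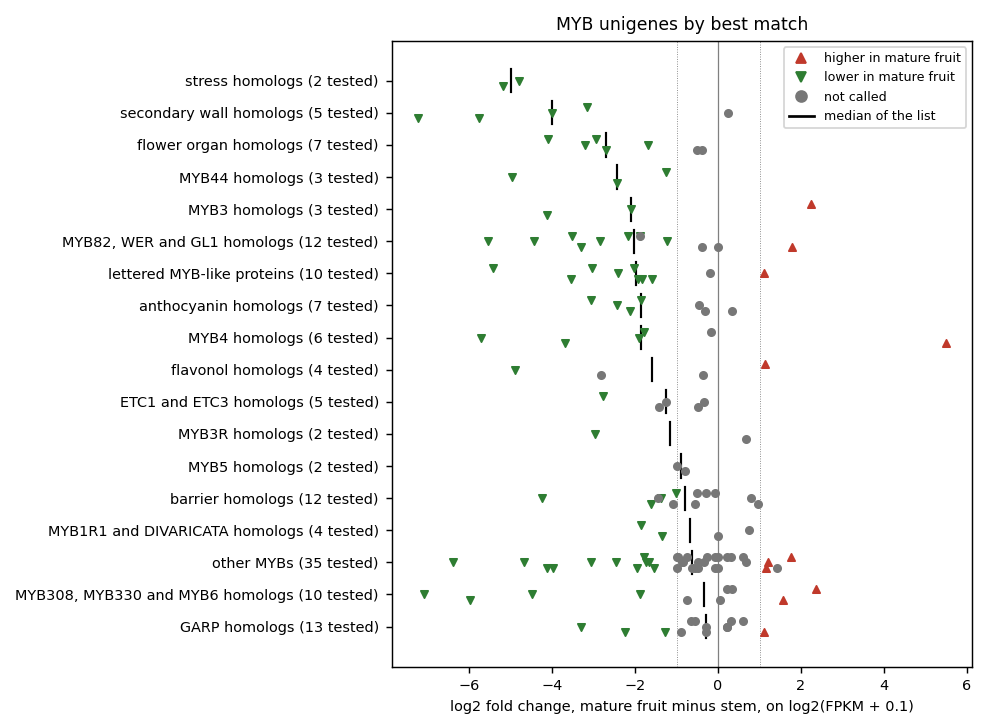
Log2 fold change of each tested MYB, mature fruit minus stem on log2(FPKM + 0.1), by group of best match, with the number tested in brackets. Triangles pointing up and down are MYBs called higher and lower in mature fruit, grey circles those not called, black bars the median of each group, and dotted lines mark a 2-fold change. All 18 medians are below 0, from -4.99 (stress homologs) to -0.29 (GARP homologs), and the widest rise is the MYB4 homolog at 5.50.

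**Figure D4:**
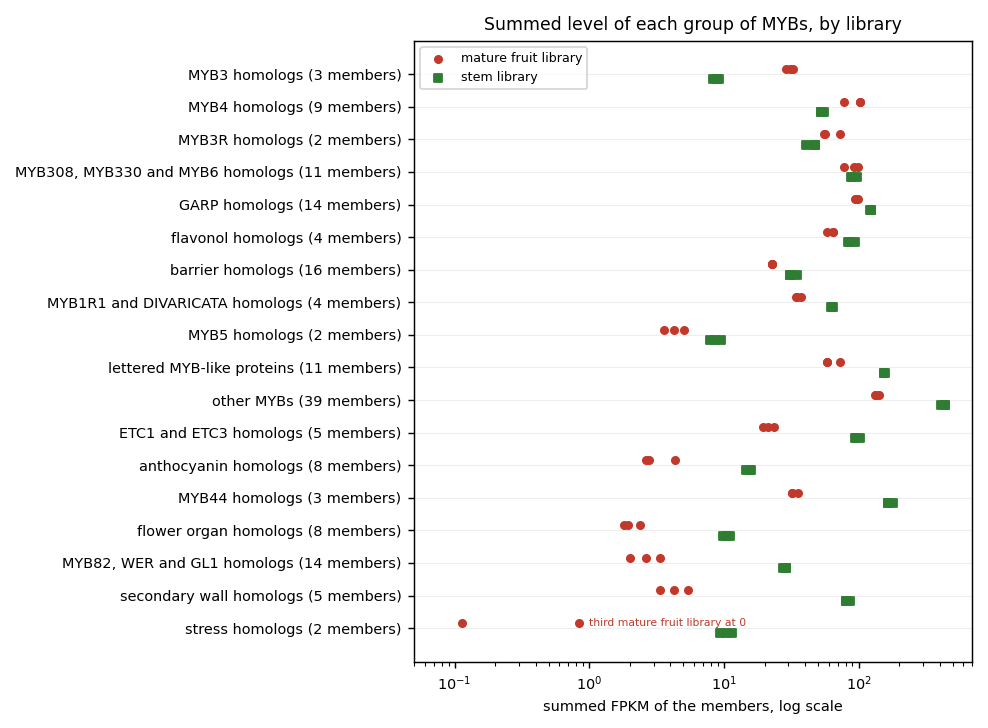
Summed FPKM of the members of each group in each library, on a log scale, with mature fruit (circles) above stem (squares) in each row. The MYB3, MYB4 and MYB3R homologs summed higher in mature fruit, the MYB308, MYB330 and MYB6 homologs overlapped, and the 14 other groups summed lower in mature fruit.

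Within one Trinity read cluster (unigenes assembled from connected reads, which share the start of their name) unigenes may share reads, and 57 of the 163 MYBs lay in a read cluster with another MYB. Of the 7 read clusters with at least 2 called MYBs, 2 held both directions and 5 held only MYBs lower in mature fruit. Of the 2353 read clusters with at least 2 called unigenes, 1104 (46.9%) held both directions. Read cluster DN145308_c4 had 2 MYBs higher (WER-like and MYB12b), 2 lower (MYB114-like DN145308_c4_g6 and putative MYB DN145308_c4_g3) and 2 not called, one of them MYB5. Read cluster DN148048_c1 held MYB7, higher, and MYB24, lower, both under 0.4 FPKM in every library. Read cluster DN146459_c2 held 8 MYBs, of which 6 were lower, among them MYB82-like DN146459_c2_g1 and MYB108 DN146459_c2_g7. Whether shared reads moved between such neighbours was not tested. The largest riser, DN142862_c0_g1, and the MYB46 and MYB11 homologs of DN142862_c4 belong to different read clusters.

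For most MYBs present in both tissues, the spread within tissues was small beside a 2-fold change, which is 1 on the log2 scale. Some, such as MYB92 DN66535_c0_g1 (-0.08), differed by little. Over the 62 MYBs with a mean of at least 1 FPKM in both tissues, the median SD on the log2 scale was 0.18 in mature fruit and 0.10 in stem. Mature fruit library 1 was the farthest from the other 2 in 36 of these 62 MYBs, library 2 in 15 and library 3 in 11. Among the stem libraries, library 2 was the farthest in 35, library 1 in 15 and library 3 in 12. With mature fruit library 1 alone, 7 MYBs were called higher and 58 lower, and 4613 and 6664 of all unigenes. The pair of MYBs with insect best matches among the unigenes shared by mature fruit libraries 2 and 3, DN133537_c0_g1 and DN125764_c0_g1, named here after their values were seen, reached 0.354 and 1.07 FPKM in library 3 and were at 0 in library 1 and in all stem libraries. Their source was not tested.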

How the data were processed

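The authors trimmed the reads (Trimmomatic, in the submitters' processing notes), assembled them with Trinity, mapped them with Bowtie2 and estimated levels with RSEM, and deposited FPKM per unigene and library. No source read gives their versions. FPKM is scaled per library, so a few abundant unigenes can lower all others. Read totals reported by the study did not enter the tests. MYB names came from the study's table of best matches.

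Deposited FPKM values were tested on log2(FPKM + 0.1) with limma 3.58.1 in R 4.3.3, with a trended prior variance and 1 mean per tissue over all 15 libraries. P-values were adjusted by Benjamini-Hochberg over 51175 unigenes (above 0.1 FPKM in at least 3 libraries). Calls needed FDR of 0.01 and 2-fold. The fit was tested on simulated data with changes set only in the more abundant unigenes, so it does not cover changes near the floor. Single values per library were compared by two-sided exact permutation tests. Intervals are 95% and unadjusted.

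Named were up to 12 risers and 18 fallers, MYBs of at least 20 FPKM, up to 4 per group, MYBs with primers, MYBs of read clusters with both directions, and 2 risers and 2 fallers outside the MYBs. Risers and fallers, inside and outside the MYBs, had to be called and to have ranges that did not overlap. Members, groups (19) and tests were chosen with earlier results of these data known. Alternatives were other pseudocounts, filters, scaling, spread models, FDR, fits of the 6 libraries, a replicate block and libraries left out. Leaf and flower entered the fit only.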

Additional observations from a re-analysis of the deposited data

How the results depend on the processing

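The limits are the missing read counts, the 3 libraries per tissue and the low level of many MYBs. Of 80 named results with a call, 19 changed call or sign in at least 1 setting. A pseudocount of 1 moved the counts most, to 3891 unigenes higher and 5658 lower and to 6 MYBs higher and 49 lower, because it shrinks changes of low unigenes. A pseudocount of 0.01 gave 6108 and 8923 unigenes. With mature fruit library 1 alone, which is then assumed to vary like the other tissues, 7 MYBs were called higher. In the same setting the sign turned for DN144159_c2_g1 (0.029), DN147056_c0_g1 (0.49) and DN149700_c2_g2 (0.20), and DN147056_c0_g1 ranged from -0.50 to 0.013 with 1 library left out. Leaving out 1 library at a time gave 5186 to 5979 unigenes higher, 7856 to 8464 lower, 8 to 9 MYBs higher and 63 to 68 lower. The summed MYB level differed by -747 FPKM as deposited, by -721 FPKM under median-of-ratios scaling and by -510 FPKM without DN145829_c0_g2. The share of calls that were higher in mature fruit ranged from 39.3% to 43.2% over all settings. Same-numbered libraries did not deviate together (r of 0.06, 0.03 and -0.01, beside -0.07 to 0.06 for different numbers). With 3 libraries per tissue, this cannot settle whether equal numbers came from the same plants. A replicate block gave 6212 unigenes higher and 8603 lower and 10 MYBs higher and 67 lower, and among the named results only the APL homolog DN149346_c2_g2 lost its call (limma adjusted p = 0.0154). Leaving out unigenes at 0 outside mature fruit libraries 2 and 3 could change no call, because the filter needs at least 3 libraries. That setting is therefore no check of the results.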
